A study of Mus musculus with 6 samples.

Results

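The genes described here encode the receptors through which macrophages bind immunoglobulin G (IgG) by its Fc region. They are Fcgr1, Fcgr3 and Fcgr4, the activating receptors; Fcer1g, their signalling adaptor; Fcgr2b, the inhibitory receptor; and Fcgrt, the neonatal Fc receptor FcRn. All 6 were chosen by gene symbol from 55291 rows of the deposited expression table, with earlier results of these data known. They were compared in tumour-associated macrophages (TAM) from mouse hepatocellular carcinoma, in 3 libraries labelled TREM2+ and 3 labelled TREM2-. TREM2 is a surface receptor of macrophages that binds lipids and signals through the adaptor Tyrobp. Both groups came from liver tumours, and the labels name no treatment, genotype, strain, age, tumour model or sorting gate for either. Nor do they tie a replicate to an animal, so the p-values below cover the spread between these libraries, which may be technical.

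In macrophages the activating receptors bind IgG on the outside of the cell and carry no signalling motif of their own. Each is assembled with Fcer1g, the FcR gamma chain, whose immunoreceptor tyrosine-based activation motif (ITAM) recruits the kinase Syk when IgG complexes cross-link the receptor, and which in most settings is also needed to bring the receptor to the cell surface. Fcgr2b binds IgG complexes with an extracellular part closely related to that of Fcgr3, but its own tail holds an inhibitory motif (ITIM) that recruits the phosphatase SHIP-1, the product of Inpp5d. FcRn acts inside the cell: paired with beta-2-microglobulin, it binds IgG in acidified endosomes and returns it to the surface, which protects IgG from breakdown, and in antigen-presenting cells it also routes IgG complexes for presentation.

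The coding sequences of the activating and the inhibitory motif are shown first, since the receptors share IgG as a ligand and signal through different motifs. In GENCODE M21 (mm10) the ITAM of Fcer1g lies at residues 65 to 79 of 86, and its coding stretch runs across an intron within chr1:171229883-171230078 on the minus strand. Capitals mark the tyrosine codons and the leucine codons that close each part of the motif. The ITIM of Fcgr2b lies at residues 270 to 275 of 293 in transcript Fcgr2b-202, coded at chr1:170961056-170961100 on the minus strand. Capitals there mark the isoleucine, tyrosine and leucine codons of the motif.
Fcer1g ITAM: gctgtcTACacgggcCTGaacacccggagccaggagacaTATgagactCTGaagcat
Fcgr2b ITIM: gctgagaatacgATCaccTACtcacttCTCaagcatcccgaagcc
No ITAM pattern was found in the coding sequences of the other 5 genes. The short ITIM pattern is loose: it also matched 3 times in Fcgr1 and 1 time each in Fcgr4, Fcgrt and Fcer1g, and a match by itself marks no working motif. Of the 4 Fc gamma receptor genes, Fcgr2b and Fcgr3 were the closest pair, with 80.4% identity over 791 aligned coding bases, against 58.7% to 63.3% for the other pairs. Their longest identical coding stretch, 129 bases in the part that codes for the extracellular domains, is shown because reads that fall within it cannot be assigned to either gene by sequence alone. It crosses an intron in both genes, within chr1:170966674-170968081 for Fcgr2b and chr1:171054167-171057792 for Fcgr3.
Shared by Fcgr2b and Fcgr3: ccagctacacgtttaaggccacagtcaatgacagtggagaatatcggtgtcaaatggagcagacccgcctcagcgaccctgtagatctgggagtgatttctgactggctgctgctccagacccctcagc
No stretch of 150 exonic bases was shared between the 2 genes, and of the stretches of Fcgr3, 2.54% of those of 100 bases, 9.58% of those of 50 bases and 17.1% of those of 20 bases also occurred in Fcgr2b. The reads were 150 bases long and paired, per the labels' protocols.

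All 6 genes had at least 894 reads in every library, and all 6 had a higher mean in TREM2+ TAM. The values are length-scaled transcript levels (TPM), rescaled here so that each library sums to 1000000, and differences are given on the scale of log2(TPM + 1). Fcgrt and Fcgr4 rose, by about the same amount and to about 3 times their TREM2- level, whereas Fcgr1, Fcgr2b, Fcgr3 and Fcer1g did not pass the test (limma, Benjamini-Hochberg adjustment over 13788 genes, threshold 0.05). Of all genes tested, 2.05% passed as higher and 0.37% as lower, so that 2 of 6 receptor genes passed as higher and 0 of 6 as lower. In 5 of 6 genes every TREM2+ library lay above every TREM2- library, which was so for 9.07% of all genes tested (7.62% lay wholly below). At an unadjusted p under 0.05, 4 of 6 were higher and 0 of 6 lower, beside 7.45% and 5.34% of all genes. The median difference of the 6 genes was 0.97, beside a median of -0.09 over all genes tested. Higher genes made up 84.7% of all calls, a share that was 68.7% with the deposited values not rescaled and 72.3% with a repeat family left out before rescaling. Together the 6 genes took between 0.717% and 1.22% of a library's TPM. In bulk libraries such as these, fewer cells that express a gene and less RNA of it per cell cannot be told apart.

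**Figure D1:**
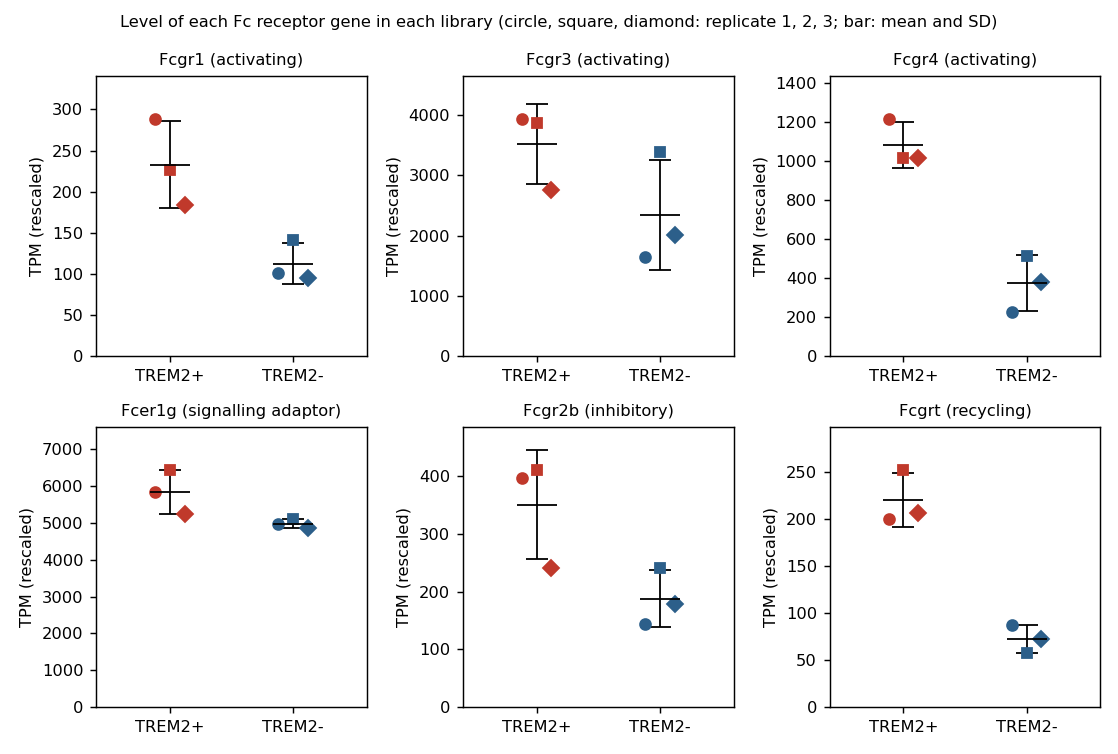
Level of each receptor gene in TPM (vertical axes, each from 0, with its own scale) in the 3 TREM2+ and 3 TREM2- libraries; points are libraries, and bars are the group mean with its SD. The groups are apart for Fcgr4 and Fcgrt, nearly touch for Fcgr2b and Fcer1g, and overlap for Fcgr3.

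Facts of the whole series bear on these values. The libraries held 11493465 to 19929829 reads assigned to genes, as recovered from the deposited values. Mitochondrial genes took 3.78% to 10.02% of TPM in the TREM2+ and 2.42% to 12.3% in the TREM2- libraries. A single repeat-derived gene, Gm10800, took 0.575% to 13.7% and 0.344% to 19.2%, and was highest in the library numbered 3 of each group. Trem2 itself was detected in both groups, at 37.0 ± 5.51 TPM in TREM2+ and 19.5 ± 2.28 TPM in TREM2- TAM (SD, n = 3), a log2 difference of 0.89 that did not pass the test (adjusted p = 0.0855 in limma). It passed by voom (adjusted p = 0.0345) and with library weights in limma (0.90, adjusted p = 0.00653). In every fit with library weights, TREM2- replicate 2 had a weight of 3.53, against 0.268 and 0.617 for TREM2- replicates 1 and 3. The weights of TREM2+ replicates 1, 2 and 3 were 2.85, 1.22 and 0.492.

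Among the activating receptors, only Fcgr4 passed the test. Fcgr4 (ENSMUSG00000059089.4, chr1:171018920-171029761, plus strand) encodes the receptor of intermediate affinity that binds mouse IgG2a and IgG2b. It was at 1217, 1014 and 1017 TPM in the TREM2+ libraries and at 225, 511 and 379 TPM in the TREM2- libraries. The lowest TREM2+ library was 1.98 times the highest TREM2- library, and the TREM2- libraries varied more among themselves than the TREM2+ libraries. The means were 1082 ± 117 and 372 ± 143 TPM (SD, n = 3), a log2 difference of 1.61 ± 0.31 (SE; 95% interval 0.91 to 2.31; adjusted p = 0.0308 in limma), or 3.06-fold. The exact two-sided permutation test over the 6 libraries gave p = 0.1, the smallest that 3 against 3 libraries allow, so no single gene could reach 0.05 by that test. The Fcgr4 call was lost when any library other than TREM2- replicate 2 was left out (adjusted p from 0.0551 to 0.117 in limma), without a filter on low values (0.166), with median-of-ratios scaling (0.0856), with quantile normalization (0.0877) and with the repeat family left out (0.0739). It was also lost with the replicate number as a block (adjusted p = 0.103 in limma) and without both libraries numbered 3 (0.329). Over these settings its difference stayed between 1.29 and 1.71.

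Fcgr1 (ENSMUSG00000015947.10, chr3:96282909-96293969, minus strand) encodes the high-affinity receptor CD64, which can hold single IgG molecules. It was at 289, 226 and 184 TPM in TREM2+ TAM and at 101, 141 and 94.3 TPM in TREM2- TAM. The groups did not overlap, and the TREM2+ libraries spread over a wider range. Means of 233 ± 52.8 and 112 ± 25.2 TPM (SD, n = 3) gave a log2 difference of 1.04 ± 0.26 (SE; 95% interval 0.47 to 1.62), which did not pass the test (adjusted p = 0.0821 in limma; exact permutation p = 0.1). It passed in 4 other analyses at the same threshold: with a minimum of 5 TPM (0.0439), with a mean of at least 10 reads (0.0471), with library weights (0.0219) and by voom on recovered reads (0.0288). Fcgr1 did not pass with any single library left out (adjusted p from 0.0549 to 0.332 in limma). Nor did it pass without a filter on low values (0.272) or with the replicate number as a block (0.106).

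Fcgr3 (ENSMUSG00000059498.13, chr1:171051174-171064935, minus strand) encodes the low-affinity activating receptor CD16 and was the most abundant of the 4 Fc gamma receptors, ranking 41 among all genes by mean TPM. Its level was 3943, 3862 and 2749 TPM in TREM2+ TAM and 1648, 3382 and 2016 TPM in TREM2- TAM. TREM2- replicate 2 lay above TREM2+ replicate 3, so the groups overlapped. The means were 3518 ± 667 and 2349 ± 913 TPM (SD, n = 3). The log2 difference was 0.63 ± 0.31 (SE; 95% interval -0.08 to 1.35) and did not exceed the spread between libraries (adjusted p = 0.478 in limma; exact permutation p = 0.2). The interval leaves room for no difference and for one as large as that of Fcgr1. The difference was 0.41 without TREM2- replicate 1, 0.38 with quantile normalization and 0.32 with library weights.

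Fcer1g (ENSMUSG00000058715.11, chr1:171229572-171234365, minus strand), the shared adaptor, was the highest of the 6 genes and ranked 26 among all genes. Its level was 5855, 6454 and 5248 TPM in TREM2+ TAM and 4968, 5101 and 4866 TPM in TREM2- TAM. Though the groups did not overlap, the lowest TREM2+ library was only 1.03 times the highest TREM2- library. The log2 difference of 0.23 ± 0.22 (SE; 95% interval -0.28 to 0.74) did not pass the test (adjusted p = 0.786 in limma; exact permutation p = 0.1), and 20.6% of all genes tested had a more positive difference. As a fold, the interval ran from 0.824 to 1.67, and the log2 difference was 0.07 with quantile normalization and 0.14 with the repeat family left out or the deposited values not rescaled. Tyrobp, the sister ITAM adaptor that serves TREM2, was at 6240 ± 683 and 6952 ± 850 TPM (SD, n = 3), with a log2 difference of -0.15 ± 0.24 (SE; adjusted p = 0.870 in limma).

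The inhibitory receptor gene, Fcgr2b (ENSMUSG00000026656.15, chr1:170958617-170976547, minus strand), had a higher mean in TREM2+ TAM, as the activating receptors did, but did not pass the test. It was at 398, 412 and 241 TPM in TREM2+ TAM and at 144, 240.5 and 179 TPM in TREM2- TAM. TREM2+ replicate 3 and TREM2- replicate 2 were nearly equal, so the groups only just failed to overlap. Means of 350.3 ± 94.5 and 188 ± 48.7 TPM (SD, n = 3) gave a log2 difference of 0.89 ± 0.29 (SE; 95% interval 0.23 to 1.54; adjusted p = 0.207 in limma; exact permutation p = 0.1). An antisense gene, Gm38204, overlaps Fcgr2b, and reads of the 2 genes cannot be told apart without a stated strand setting. Gm38204 had 1 to 14 reads per library, against 6678 to 17756 for Fcgr2b. These counts do not show how reads in the overlap were assigned.

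Fcgrt (ENSMUSG00000003420.8, chr7:45092990-45103851, minus strand), the gene of the recycling receptor FcRn, rose as much as Fcgr4. Its SD was 20.8% of the mean in the TREM2- libraries, against 38.6% for Fcgr4. In the TREM2+ libraries the SD was 13.1% of the mean, against 10.8% for Fcgr4. Fcgrt was at 199.96, 253 and 207 TPM in TREM2+ TAM and at 87.1, 57.0 and 72.6 TPM in TREM2- TAM. The lowest TREM2+ library was 2.30 times the highest TREM2- library. The means were 219.99 ± 28.7 and 72.2 ± 15.0 TPM (SD, n = 3), a log2 difference of 1.61 ± 0.23 (SE; 95% interval 1.08 to 2.13; adjusted p = 0.00992 in limma; exact permutation p = 0.1), or 3.04-fold, and 1.36% of all genes tested had a more positive difference. It rested on 894 to 3790 reads per library, a counting error of at most 3.34%. The call held with each single library left out in turn (adjusted p from 0.0189 to 0.0455). It was lost without both libraries numbered 3 (1.66, adjusted p = 0.193), where only 2 libraries per group remained. With all 6 libraries, it was also lost when the replicate number entered as a block (1.61, adjusted p = 0.0562 in limma).

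FcRn reaches its folded form only with beta-2-microglobulin. B2m, which also serves the class I antigen-presenting molecules, was at 11726, 10790 and 11594 TPM in TREM2+ TAM and at 10514, 5052 and 7253 TPM in TREM2- TAM. The groups did not overlap, and the log2 difference of 0.64 ± 0.30 (SE) did not pass the test (adjusted p = 0.441 in limma). It was 0.38 without TREM2- replicate 2 and 0.37 with quantile normalization, and passed with library weights (1.04, adjusted p = 0.0258 in limma). Those weights favoured TREM2- replicate 2, whose B2m was the lowest of its group. For each 100 TPM of B2m there were 1.71, 2.34 and 1.79 TPM of Fcgrt in TREM2+ and 0.828, 1.13 and 1.001 TPM in TREM2- TAM, which did not overlap either.

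**Figure D2:**
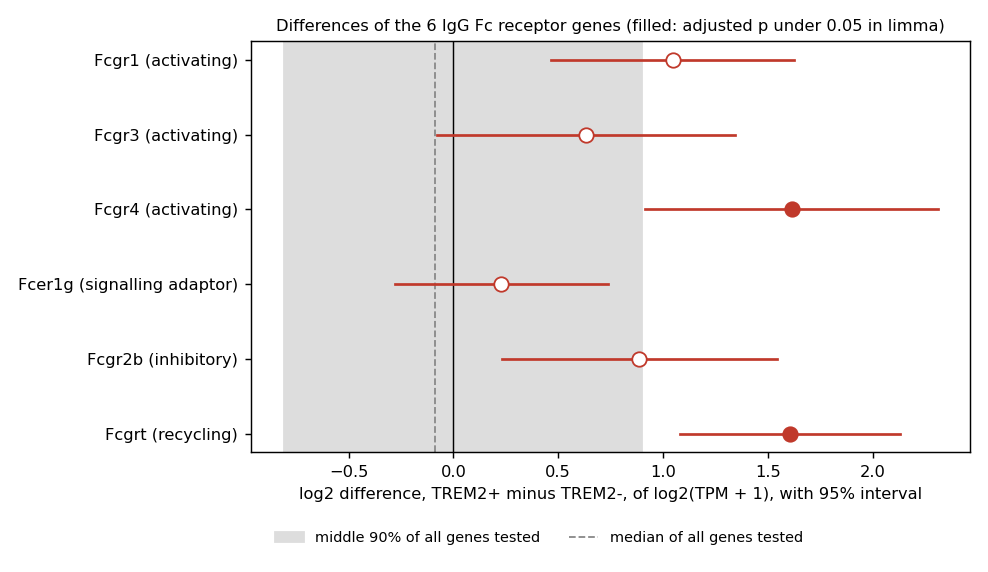
Difference of each receptor gene between TREM2+ and TREM2- TAM (horizontal axis, log2 of TPM + 1, TREM2+ minus TREM2-) with its 95% interval; the grey band holds the middle 90% of all genes tested (-0.81 to 0.90) and the dashed line is their median. Fcgr4 and Fcgrt, drawn filled, are the 2 genes with an adjusted p under 0.05, and only the intervals of Fcgr3 and Fcer1g include 0.

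The balance of activating to inhibitory receptor was next compared as a ratio of TPM within each library, for which no test was made. The sum of Fcgr1, Fcgr3 and Fcgr4 over Fcgr2b was 13.7, 12.4 and 16.4 in TREM2+ TAM and 13.7, 16.8 and 13.9 in TREM2- TAM. These ranges overlapped, with means of 14.2 ± 2.02 and 14.8 ± 1.73 (SD, n = 3). The mean log2 ratio differed by -0.07. It was -0.27 with quantile normalization, -0.22 without both libraries numbered 3, and between -0.18 (without TREM2+ replicate 3) and 0.027 (without TREM2- replicate 2) with single libraries left out, and its sign also turned without TREM2+ replicate 2 (0.024).

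The make-up of the receptors did not overlap between the groups for Fcgr3 and Fcgr4. Of the summed TPM of the 4 Fc gamma receptors, Fcgr3 took 67.4%, 70.1% and 65.6% in TREM2+ TAM and 77.8%, 79.1% and 75.5% in TREM2- TAM. Fcgr4 took 20.8%, 18.4% and 24.3% against 10.6%, 12.0% and 14.2%. Neither share overlapped between the groups: that of Fcgr3 was lower and that of Fcgr4 higher in all 3 TREM2+ libraries. The shares of Fcgr1 (4.10% to 4.94% and 3.30% to 4.79%) and Fcgr2b (5.76% to 7.47% and 5.63% to 6.80%) overlapped. Per TPM of Fcgr3 there were 0.309, 0.262 and 0.370 TPM of Fcgr4 in TREM2+ and 0.136, 0.151 and 0.188 in TREM2- TAM, a log2 difference of 0.98. Per TPM of Fcgr2b, Fcgr4 stood at 3.06, 2.46 and 4.21 against 1.56, 2.13 and 2.12, again without overlap. Fcgrt per TPM of Fcgr2b overlapped, at 0.503, 0.615 and 0.858 against 0.604, 0.237 and 0.405.

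**Figure D3:**
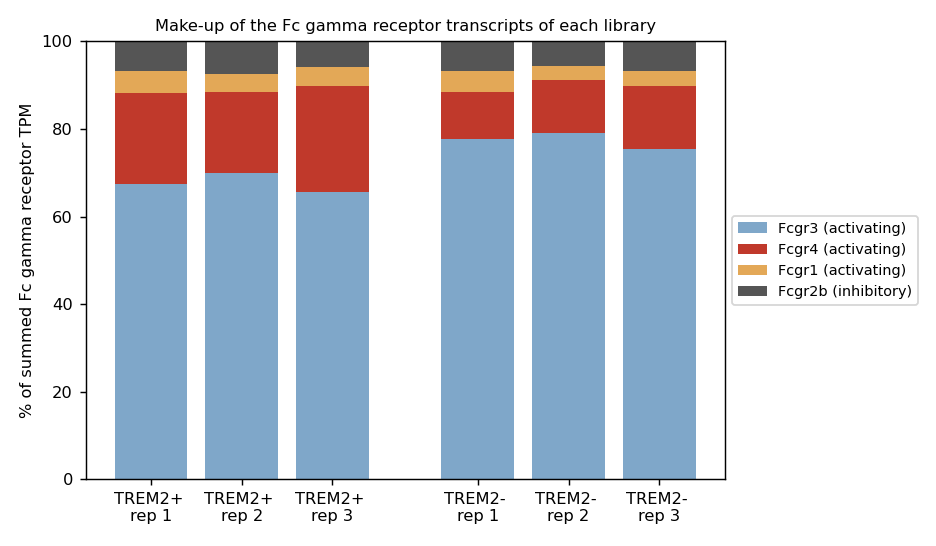
Make-up of the Fc gamma receptors in each library, as the percent of the summed TPM of Fcgr1, Fcgr2b, Fcgr3 and Fcgr4. Fcgr4 takes 18.4% to 24.3% in the TREM2+ and 10.6% to 14.2% in the TREM2- libraries, Fcgr3 takes 65.6% to 70.1% and 75.5% to 79.1%, and the shares of Fcgr1 and Fcgr2b overlap between the groups.

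The level of Fcgr2b relative to the others depends on the length used. The annotated exons of Fcgr2b cover 5790 bases, against 1462 in its shortest transcript with a consensus coding sequence, whereas Fcgr1 and Fcgr4 have the same length by both counts (2589 and 1256 bases). With the shorter lengths the ratio of activating receptors to Fcgr2b fell to 4.18, 3.81 and 4.96 in TREM2+ and 4.29, 5.26 and 4.33 in TREM2- TAM. The difference between the groups was -0.10 on the log2 scale, beside -0.07 before. Which transcripts the cells used is not known from a table of whole genes.

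The adaptor was set against the receptors in the same way. The summed TPM of the 3 activating receptors per TPM of Fcer1g was 0.931, 0.791 and 0.753 in TREM2+ TAM and 0.397, 0.791 and 0.512 in TREM2- TAM. TREM2- replicate 2 thus lay within the TREM2+ range. That library also had the highest Fcgr1, Fcgr3, Fcgr4 and Fcgr2b of its group and the lowest Fcgrt and B2m.

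Over the 6 libraries the members varied together, given here as Pearson's r of log2(TPM + 1) over libraries that include both groups. The highest values were 0.947 for Fcgr3 with Fcgr2b, 0.935 for Fcgr1 with Fcgr2b and 0.927 for Fcgr1 with Fcgr4. The lowest was 0.527, for Fcgr3 with Fcgrt. Fcgr3 and Fcgr2b share the identical stretch shown above as well as a chromosomal neighbourhood, and whether either bears on their correlation was not tested. Among 7538 genes with a mean of at least 5 TPM, those most like Fcgrt were Meis3 (0.992), a homeobox gene, Lilra5 (0.991), a receptor that signals through the FcR gamma chain, and Cxcl16 (0.988), a chemokine that also exists as a membrane scavenger receptor. Those most like Fcgr4 were Ccl12 (0.988), a monocyte-attracting chemokine, and the ferritin light chain pseudogenes Ftl1-ps1 (0.989) and Ftl2-ps (0.986), whose reads may come from the parent gene. For Fcgr1 they were Akap7 (0.997), Gpt2 (0.996) and Tcf7l2 (0.995), and for Fcgr3 Fam20c (0.994), Luzp1 (0.989) and the transcription factor Cebpb (0.988). For Fcgr2b they included Serpina3n (0.981) and Scamp1 (0.979), and for Fcer1g Got1 (0.987), Pacc1 (0.985) and Rpl22l1 (0.977). Such high values were common among the 7538 genes: 265 had r over 0.9 with Fcgrt, 255 with Fcgr1 and 156 with Fcgr4. For Fcgr2b, Fcgr3 and Fcer1g these counts were 98, 85 and 64.

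Of the 6 genes, 4 lie in one stretch of chromosome 1, from the start of Fcgr2b to the end of Fcer1g (chr1:170958617-171234365, mm10), which holds 17 annotated genes in all. Besides the receptors, 5 genes of the stretch were tested, and none of them passed. Sdhc, a subunit of respiratory complex II, had a log2 difference of 0.22 ± 0.21 (SE) and Apoa2, a liver apolipoprotein, one of -0.02 ± 0.62 (SE). Tomm40l was at -0.30 and Cfap126 at 0.19. The nearest in size to the receptors was the long noncoding gene Gm10522, at 0.97 ± 0.27 (SE; adjusted p = 0.130 in limma), on 3 to 21 reads per library. Outside the stretch on the side of Fcgr2b, at chr1:170907273-170912941, lies Fcrlb, an Fc receptor-like gene whose protein stays inside the cell. Fcrlb was at 60.9, 49.4 and 34.9 TPM in TREM2+ and at 6.73, 10.5 and 8.72 TPM in TREM2- TAM, and it rose by a log2 difference of 2.34 ± 0.27 (SE; adjusted p = 0.00538 in limma).

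Promoters are shown for Fcgr4 and Fcgrt, which rose alike, and for Fcgr1, whose induction by interferon gamma is well known. They are the 250 bases before the RefSeq start of each gene (GRCm38.p6, the assembly of mm10), written along the gene's strand. Capitals mark GAGGAA, the core recognised by the macrophage factor PU.1, and TTCNNNGAA, the interferon-gamma activated site, each searched on both strands, so that GAGGAA on the other strand reads TTCCTC.
Fcgr4 (chr1:171018676-171018925, plus strand): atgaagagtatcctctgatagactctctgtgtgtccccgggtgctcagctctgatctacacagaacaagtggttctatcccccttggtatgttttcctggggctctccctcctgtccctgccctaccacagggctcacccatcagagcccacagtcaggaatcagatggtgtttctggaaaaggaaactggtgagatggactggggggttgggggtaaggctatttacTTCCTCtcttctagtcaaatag
Fcgrt (chr7:45103823-45104072, minus strand): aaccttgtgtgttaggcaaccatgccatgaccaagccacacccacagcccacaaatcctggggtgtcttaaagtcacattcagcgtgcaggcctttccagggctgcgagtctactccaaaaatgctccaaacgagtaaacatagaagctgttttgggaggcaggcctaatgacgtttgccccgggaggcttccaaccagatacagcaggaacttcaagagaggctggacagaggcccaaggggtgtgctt
Fcgr1 (chr3:96293970-96294219, minus strand): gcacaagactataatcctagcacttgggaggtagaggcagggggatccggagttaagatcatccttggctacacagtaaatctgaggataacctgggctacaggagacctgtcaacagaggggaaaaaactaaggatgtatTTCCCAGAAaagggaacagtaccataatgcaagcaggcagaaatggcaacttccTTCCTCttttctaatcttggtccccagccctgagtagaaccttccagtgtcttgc
GAGGAA occurred 1 time each in the windows of Fcgr1, Fcgr3 and Fcgr4 and 0 times in those of Fcer1g, Fcgr2b and Fcgrt, while 23.3% of 32851 promoter windows of the same length held it. TTCNNNGAA occurred in Fcgr1 alone of the 6 genes, against 7.0% of all windows. Fcgr4 and Fcgrt thus shared neither motif within these windows. These are matches of letters in a short window, and binding was not measured. Spi1, which encodes PU.1, was at 596 ± 64.9 and 659 ± 138 TPM (SD, n = 3) and did not pass the test.

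No gene of the lists downstream of the receptors passed the test as reported. Of 26 kinases and adaptors of the ITAM pathway, 25 were tested, and 0 passed in either direction in limma; by unadjusted p under 0.05, 0 were higher and 3 lower, and voom called 0 higher and 1 lower (Fgr). The list's median was -0.02. Syk, the kinase bound by the ITAM, was at 32.4 and 35.5 TPM (log2 difference -0.11). The smallest p-values belonged to Fgr, a Src-family kinase, at 148 ± 26.6 and 256 ± 74.4 TPM (-0.75 ± 0.27, SE; adjusted p = 0.254 in limma), and to Card9, an adaptor downstream of Syk, at 8.38 ± 2.44 and 14.1 ± 2.98 TPM (-0.70 ± 0.28, SE; adjusted p = 0.330 in limma), with Card9 at -0.46 without TREM2+ replicate 3.

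On the inhibitory side, all 11 phosphatases and adaptors of the ITIM pathway were tested and 0 passed in either direction (limma; 0 higher and 1 lower by unadjusted p under 0.05, and 0 by voom), with a median of -0.19. Inpp5d, the phosphatase bound by Fcgr2b, was at 39.9 and 39.2 TPM, and Ptpn6, which encodes SHP-1, at 476 and 626 TPM. Dok3, an inhibitory adaptor, was at 130.02 ± 35.3 and 206 ± 34.6 TPM (-0.68 ± 0.26, SE; adjusted p = 0.302 in limma). Its relative Dok2 stood at 0.51 ± 0.27 (SE; adjusted p = 0.514 in limma), at 0.26 without TREM2- replicate 2, and at 0.94 with library weights, where it passed (adjusted p = 0.0237 in limma). The value of Dok3 was -0.45 without TREM2+ replicate 3.

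Other receptors that use the FcR gamma chain gave mixed values. Of 13 such receptors and sister adaptors 10 were tested, 2 passed as higher and 0 as lower, and the median was -0.26. Clec4n, which encodes the fungal-sugar receptor Dectin-2, was at 803, 766 and 1018 TPM in TREM2+ and at 274, 247 and 225 TPM in TREM2- TAM. Its log2 difference was 1.78 ± 0.22 (SE; adjusted p = 0.00573 in limma). Lilra5, an activating leukocyte immunoglobulin-like receptor, was at 63.2, 66.4 and 56.6 TPM against 17.0, 10.05 and 16.7 TPM, a log2 difference of 2.05 ± 0.25 (SE; adjusted p = 0.00573 in limma). Both differences were larger than those of Fcgr4 and Fcgrt in size, and neither was tested against them. Fcrlb, Clec4n and Lilra5 lost their calls without both libraries numbered 3 (adjusted p = 0.144, 0.151 and 0.151 in limma). Clec4d and Clec4e, which encode the C-type lectins MCL and Mincle, stood at 1.31 ± 0.32 and 0.55 ± 0.30 (SE) and did not pass (adjusted p = 0.0821 and 0.528 in limma).

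The other immunoglobulin Fc receptors held Fcrlb as their only call (1 higher and 0 lower of 10 tested; median -0.02). Among 8 tested genes of the FcRn light chain and recycling endosome 0 passed (limma; 0 at an unadjusted p under 0.05 and 0 by voom), with a median of 0.26. B2m and the Rab11 effector Rab11fip5 (0.43 ± 0.23, SE; adjusted p = 0.514 in limma) had the smallest p-values. The ligand list held the IgG heavy chains Ighg1, Ighg2b, Ighg2c and Ighg3 and the kappa light chain Igkc, which is not specific to IgG. These 5 genes gave 0 calls in limma and in voom, and by unadjusted p under 0.05 there were 1 higher and 0 lower. Their median was -0.51, with Ighg3 at 1.42 ± 0.56 and Ighg2b at -0.77 ± 0.52 (SE; adjusted p = 0.322 and 0.652 in limma). Single libraries weighed on both: Ighg3 was at 0.80 without TREM2- replicate 2, and Ighg2b ranged from -1.30 (TREM2- replicate 2 left out) to -0.41 (TREM2- replicate 1 left out) and -0.32 (TREM2+ replicate 1 left out). With library weights Ighg3 passed (2.10, adjusted p = 0.0174 in limma) and Ighg2b was at -0.38. Of 10 known regulators of Fc gamma receptor genes 0 passed (limma; 2 higher and 1 lower by unadjusted p under 0.05, and 0 by voom), with a median of 0.01. C5ar1, the receptor for the complement fragment C5a, was at 831, 642 and 589 TPM against 216, 501 and 275 TPM (1.13 ± 0.32, SE; adjusted p = 0.143 in limma), and passed without TREM2- replicate 2 (1.48, adjusted p = 0.0206 in limma). Ifngr1, a chain of the interferon gamma receptor, stood at -0.78 ± 0.30 (SE; adjusted p = 0.293 in limma). With library weights, 1 more gene passed as higher in each of the ITAM (Blnk), ITIM (Dok2), FcRn (B2m), IgG (Ighg3) and regulator (Il4ra) lists, and Fgr passed as lower.

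**Figure D4:**
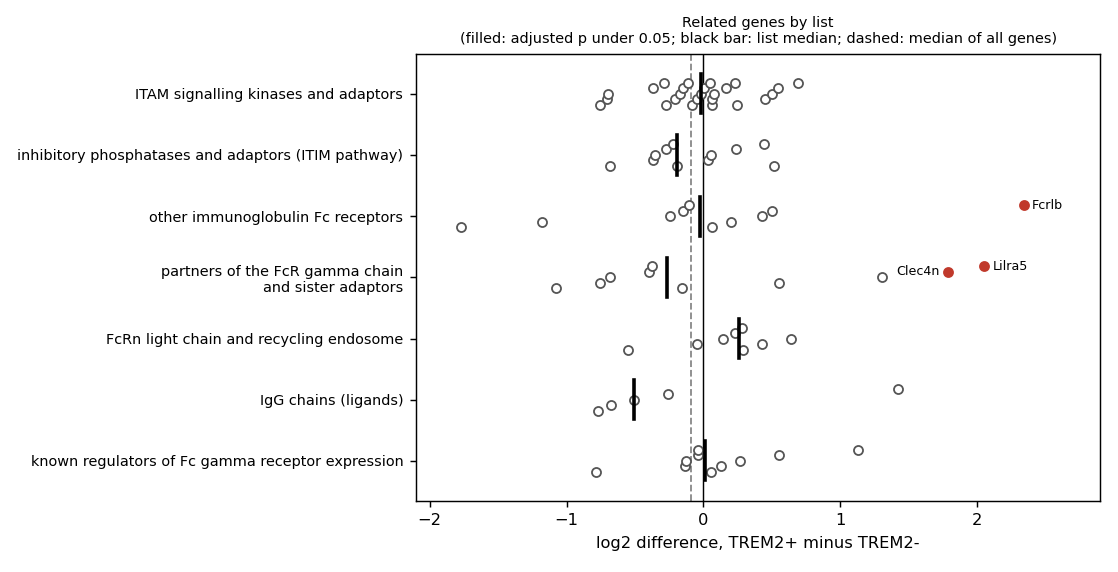
Log2 difference (horizontal axis, TREM2+ minus TREM2-) of every tested gene in the 7 related lists; each point is a gene, filled where its adjusted p is under 0.05, the black bar is the list's median and the dashed line the median of all genes tested (-0.09). Only Fcrlb, Lilra5 and Clec4n are filled, and the kinases and phosphatases lie on both sides of 0.

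Markers of other cells differed between the groups. All 6 Kupffer cell markers were higher in TREM2+ TAM, with a summed level of 934 to 1920 TPM (1919.9 in the highest library) against 136 to 239 TPM. Of 10 markers of liver sinusoidal endothelium, a cell type that itself carries Fcgr2b and FcRn, 8 passed as higher, with sums of 250.3 to 351 TPM against 28.0 to 57.1 TPM. Macrophage markers gave 1 call of 7, C1qa, with sums of 4396 to 5625 TPM against 2246 to 2528 TPM, and that list holds Fcgr1 itself. Basophil and mast cell markers gave 3 lower calls of 7, with sums of 18.3 to 27.4 TPM against 118 to 221 TPM. Monocyte and dendritic cell markers gave 1 lower call of 7 each, Ly6c2 and Ccr7, with sums of 2455 to 28410 against 9708 to 71523 TPM and of 54.9 to 71.6 against 93.7 to 252 TPM. The monocyte sums were mostly Chil3, which did not pass the test. Chil3 was at 27670, 11670 and 1946 TPM in TREM2+ and at 8002, 69640 and 17900 TPM in TREM2- TAM. No marker passed for neutrophils (16013 to 19808 against 19229 to 22306 TPM), NK cells (196 to 306 against 402 to 757 TPM), T cells (272 to 296 against 339 to 920 TPM; 919.65 in the highest library), B cells (135 to 153 against 60.2 to 373 TPM), plasma cells (487 to 779 against 632 to 845 TPM) or hepatocytes (110 to 325 against 69.7 to 442 TPM). No list had a tested marker at 0 in all libraries. In every library the neutrophil sum was above the macrophage sum, though sums over different genes do not count cells. Which of these cells carried the receptor transcripts cannot be told from bulk libraries. The part of these cells in the differences of Fcgr4, Fcgrt and the other receptor genes was not tested.

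**Figure D5:**
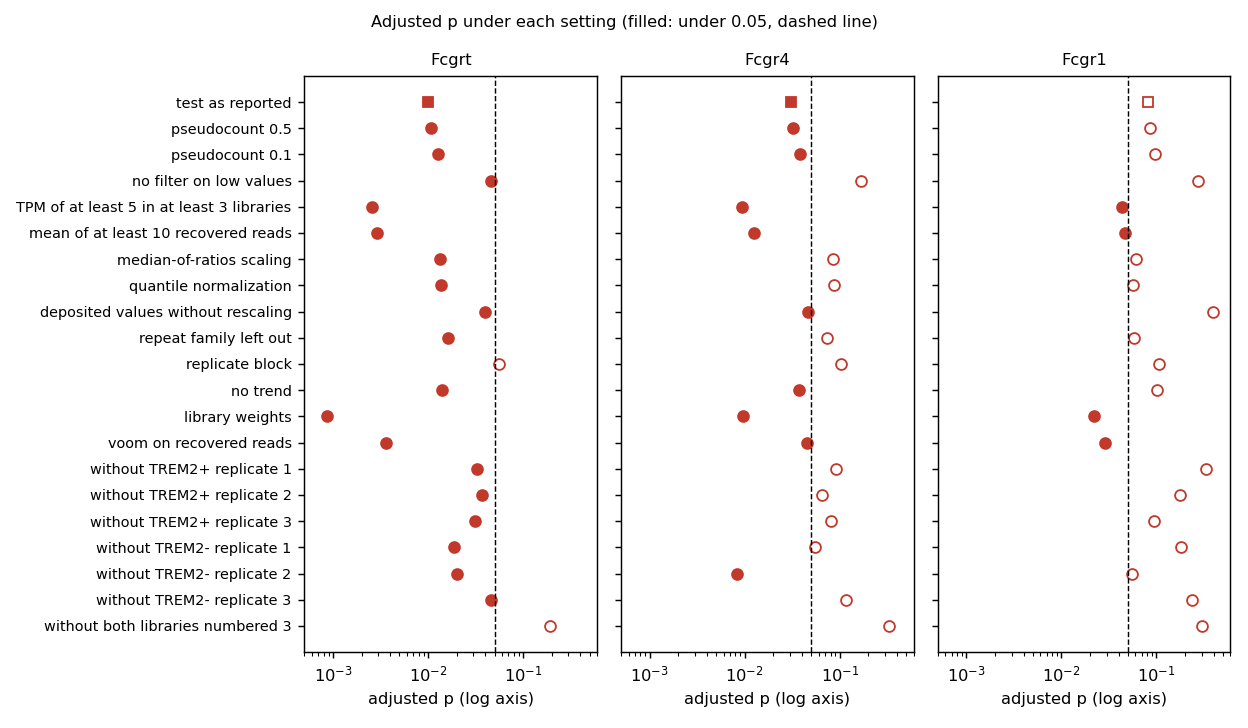
Adjusted p of Fcgrt, Fcgr4 and Fcgr1 (horizontal axes, log scale) under the test as reported (square) and each other analysis setting (circles); the dashed line is 0.05, and filled marks lie under it. Fcgrt lies under the line in all settings but the replicate block and the one without both libraries numbered 3, Fcgr4 crosses it in 11 settings, and Fcgr1 lies under it in 4.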

How the data were processed

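RNA of the 3 TREM2+ and 3 TREM2- libraries was polyadenylated RNA extracted with TRIzol and sequenced with paired ends, per the labels' protocols. Per the submitters' processing notes, STAR 2.7.10a, Subread, featureCounts 2.0.3 and build mm10 were used. For annotation, strand setting and formula, nothing was given in the sources used here. Values deposited under the name TPM are a signal scaled by gene length and not by library: the 6 columns together sum to 1000000. The planned test assumed TPM, so each library was rescaled to 1000000.

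Deposited signal times the exon length in GENCODE M21 (53186 of 55291 symbols matched) gave whole reads, within 0.01 read, for 98.7% of the 36673 matched rows above 0. Recovered depth was 11493465 to 19929829 reads; counting errors cover counting only.

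Genes that reached 1 TPM in 3 or more libraries entered a limma 3.58.1 fit (R 4.3.3, mean-variance trend, two-sided) on log2(TPM + 1), which understates changes of low genes, with Benjamini-Hochberg adjustment over all genes tested and a threshold of 0.05. Exact permutation tests used scipy 1.17.1. The fit was tested on simulated data. Other pseudocounts, filters, scalings, weights, a replicate block, left-out libraries, and voom with TMM scaling on recovered reads (98.7% of values whole; 573 higher and 158 lower calls) were tried. The repeat family left out in one of them is Gm10800 and 12 genes that share its sequence.

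The members, lists and settings were chosen with earlier results of these data known. Named were all members, Trem2, Tyrobp and B2m, up to 4 called genes of each list or else the 2 with the smallest p, and the 3 genes with the highest correlation to each member; other genes were named for their role after their values were seen. A gene that the rule names for Fcgr2b is not reported here. Coding sequences and coordinates are from GENCODE M21 (mm10) and promoters from RefSeq (GRCm38.p6), where all 6 members matched. Protein sequences were not used here.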

Additional observations from a re-analysis of the deposited data

How the results depend on the processing

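The direction of all 6 receptor genes was the same in each of the 21 alternatives. Fcgrt ranged from 1.45 to 1.80 (adjusted p from 0.000876 to 0.193 in limma), Fcgr4 from 1.28 to 1.88 (0.00825 to 0.329), Fcgr1 from 0.88 to 1.22 (0.0219 to 0.394), Fcgr2b from 0.71 to 1.13 (0.0509 to 0.603), Fcgr3 from 0.32 to 0.93 (0.14 to 0.899) and Fcer1g from 0.07 to 0.30 (0.406 to 0.979). Where a call changed, the cause was not tested. Fcgr4 lost its call without a filter (1.61, adjusted p = 0.166), with median-of-ratios scaling (1.69), quantile normalization (1.47), the repeat family left out (1.53), and without both libraries numbered 3 (1.71, adjusted p = 0.329). With each single library left out it ranged from 1.29 to 1.88 and was called only without TREM2- replicate 2. Fcgrt lost its call without both libraries numbered 3 (1.66). Fcgr4 and Fcgrt also lost theirs with the replicate block, given below. Fcgr1 gained one at 5 TPM (1.04), at 10 reads (1.04), with library weights (0.97), by voom (1.11) and at a threshold of 0.1 (1.04).

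The count of all genes called higher (282 as reported) was 95 without a filter, 451 at 10 reads, 976 with library weights, 573 by voom, 425 at a threshold of 0.1, 109 to 310 with single libraries left out and 0 without both libraries numbered 3, where limma gave 762 higher and 583 lower by unadjusted p under 0.05. Genes called lower (51) numbered 31 at a pseudocount of 0.1, 3 without a filter, 97 with median-of-ratios, 121 with quantile normalization, 89 with the deposited values, 109 with the repeat family left out, 389 with weights, 158 by voom, 89 at a threshold of 0.1, 12 to 94 with single libraries left out and 0 without both numbered 3. The 3 calls in the related lists became 5 at 5 TPM, 9 with weights, 3 to 6 with single libraries left out and 0 without both numbered 3 (7 higher and 7 lower by unadjusted p under 0.05).

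Same-numbered libraries did not all deviate together, with correlations of 0.188, -0.03 and 0.224. TREM2+ replicates 1 and 3 correlated best with the TREM2- library of their own number, and TREM2+ replicate 2 with TREM2- replicate 3. The share of Gm10800 rose and the reads fell with the number in both groups. The labels do not say whether the numbers mark pairs or batches, and these correlations cannot decide it. With the replicate block, Fcgr4 (1.61, adjusted p = 0.103) and Fcgrt (1.61, adjusted p = 0.0562) were not called in limma, and 116 genes were higher and 10 lower. Each receptor gene had at least 894 reads in every library, a counting error of at most 3.34%, which covers counting only. Whether depth bears on the spread between libraries was not tested.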

Other observations

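Among the other immunoglobulin Fc receptors, the basophil and mast cell receptor for IgE had low values that went the other way from the IgG receptors. Fcer1a, its ligand-binding chain, was at 4.29, 2.53 and 2.97 TPM in TREM2+ and at 32.2, 7.79 and 9.03 TPM in TREM2- TAM, a log2 difference of -1.77 that did not pass the test (adjusted p = 0.113 in limma). Ms4a2, its beta chain, was at 1.11, 1.40 and 0.72 TPM against 10.7, 1.67 and 2.21 TPM (-1.18, adjusted p = 0.383 in limma). In both genes the highest value was that of TREM2- replicate 1. Gm45669, annotated across part of Fcgrt, was listed at 0 in all 6 libraries.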
